A study of Mus musculus with 4 samples.

Results

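The genes described here encode the enzymes that make cholesterol and fatty acids, together with the regulators of the sterol regulatory element binding proteins (SREBPs). They were taken from the deposited table by symbol, and all 33 of the 33 named genes were found among its 55401 genes, each under 1 identifier. All 33 passed the filter on low counts, which kept 17344 genes for testing. The table counts newly made RNA, which had taken up the nucleoside 4-thiouridine (4sU) and was then captured, in 129/Ola mouse embryonic stem cells. In these SNRNP70AID cells SNRNP70, a protein of the U1 snRNP that binds 5′ splice sites, carries a degron through which the auxin IAA sends it for degradation. There were 2 libraries from SNRNP70AID cells given IAA for 5 h, whose genotype the labels spell as SNRNP70 degration, and 2 from SNRNP70AID cells at 0 h, which the labels call WT although the titles name the degron line. All cells shared the degron and a medium with serum and leukemia inhibitory factor. No cells without the degron were given IAA among the libraries analysed here, so effects of SNRNP70 loss and of IAA cannot be told apart, and neither the number of clones nor the labelling time is stated in the sources used here. The question of the series was how SNRNP70 loss compares with loss of ZFP207 in U1 snRNP function.

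Cholesterol is built from acetyl-CoA through mevalonate, farnesyl diphosphate and squalene, and fatty acids from acetyl-CoA through malonyl-CoA. When sterols in the endoplasmic reticulum (ER) run low, SCAP escorts SREBP precursors to the Golgi, where they are cut and freed to act in the nucleus. INSIG proteins hold SCAP in the ER when sterols are plentiful. SREBP-2, from Srebf2, acts mainly on sterol genes and SREBP-1, from Srebf1, mainly on fatty acid genes. In many cells these genes rise and fall together through this loop.

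After 5 h of IAA the sterol and fatty acid genes were called in both directions. Labelled RNA of Insig1 and Srebf2 was higher, that of their relatives Insig2 and Srebf1 was lower, and most changes among the enzymes were below 2-fold. At a Benjamini-Hochberg adjusted p of 0.05 in the quasi-likelihood test of edgeR, adjusted over all 17344 genes, 4 of the 33 genes rose, 14 fell and 15 were not past the threshold. Over all tested genes 22.0% rose and 21.2% fell, against 12.1% and 42.4% of the 33. The share called also depends on how many counts a gene has, and the 33 were not matched to all tested genes in this. Their median log2 fold change (5 h over 0 h) was -0.36, against -0.02 for all tested genes. In 19 genes both 5 h libraries lay below both 0 h libraries, in 7 both lay above, and in 7 the groups overlapped, where 37.5% of all tested genes lay below and 36.0% above. Of the 33, 0 rose by 2-fold or more, where 7.60% of all tested genes did, and 1, Tm7sf2, fell by 2-fold or more, where 10.2% did.

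The number of genes on each side depended on how the libraries were scaled. Levels are CPM, counts brought to a common library size with TMM factors, which take most genes as unmoved. The share of counts from mitochondrially encoded genes was 6.03% and 7.17% at 5 h, against 4.41% and 4.34% at 0 h, and its part in the results was not tested. With library totals as the scale 2 of the 33 rose and 22 fell, where 13.2% and 30.3% of all tested genes did so. With the mitochondrially encoded genes as the scale 0 rose and 30 fell, where 2.28% and 51.2% of all tested genes did so. The median of the 33 was -0.63 and -1.21 on these scales, and that of all tested genes -0.28 and -0.86, so the distance between them was -0.35 on each of the 3 scales. A common scaling shifts nearly all genes alike, so this equality is no separate evidence. Changes below are relative to the other RNAs of a library with TMM scaling. With TMM scaling the median of the 33 was -0.26 without 0 h replicate 1 and -0.39 without 0 h replicate 2. In bulk RNA, fewer cells of a type and less RNA per cell cannot be told apart.

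**Figure D1:**
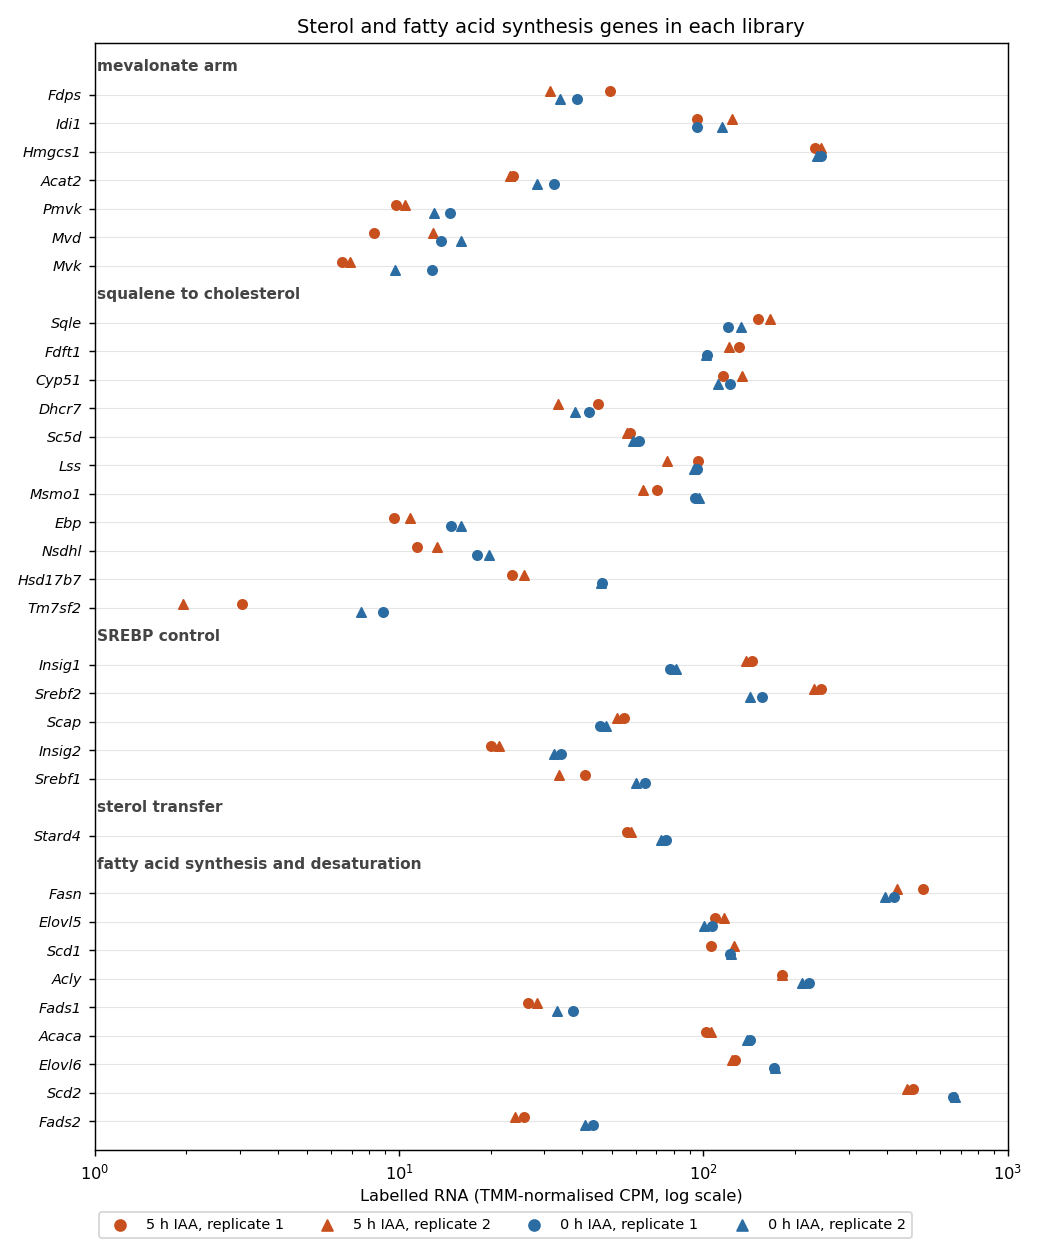
Labelled RNA of each of the 33 genes in TMM-normalised CPM on a log axis, with 5 h libraries in orange above and 0 h libraries in blue below each line (circle, replicate 1, and triangle, replicate 2). Insig1 and Srebf2 lie to the right at 5 h, while Insig2, Srebf1, Hsd17b7 and Tm7sf2 lie to the left. CPM is not corrected for gene length, so heights of different genes are not comparable.

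Among the regulators, 2 of 5 rose, 2 fell and 1 was not past the threshold, where 22.0% of all tested genes rose and 21.2% fell. Insig1 (ENSMUSG00000045294.11, chr5:28071412-28078662, GRCm38.p6), whose gene is a known SREBP target and whose protein retains SCAP, had 144 and 138 CPM at 5 h, against 77.6 and 81.3 CPM at 0 h. The groups did not overlap, and Insig1 rose 1.78-fold (log2 fold change 0.83 ± 0.10, SE, n = 2 each, edgeR adjusted p = 1.29e-04). Its 5 h mean was 141 ± 4.34 CPM and its 0 h mean 79.5 ± 2.61 CPM (SD). The span of Insig1 overlaps that of Gm35223, a long non-coding RNA gene, and without a stated strand setting reads in the overlap cannot be assigned. In all, 15 of the 33 spans overlap another gene, 4 of them a protein-coding gene. Insig2 (ENSMUSG00000003721.14, chr1:121304353-121332662), whose protein holds SCAP in the same way but whose gene is known as less dependent on SREBP, had 20 and 21.3 CPM at 5 h, against 34.1 and 32.3 CPM at 0 h. Both 5 h libraries were below both 0 h libraries, and Insig2 fell to 0.619 of its 0 h level (log2 fold change -0.69 ± 0.15, edgeR adjusted p = 0.00444).

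Srebf2 (ENSMUSG00000022463.8), which encodes SREBP-2, had 243 and 230.3 CPM at 5 h, against 156 and 142 CPM at 0 h. It rose 1.59-fold, with a log2 fold change of 0.67 ± 0.10 and an edgeR adjusted p of 3.28e-04. Mir33, a microRNA gene, lies within the span of Srebf2 (chr15:82147269-82205379), and its RNA was not separated from that of its host. Srebf1 (ENSMUSG00000020538.15, chr11:60199084-60224186), which encodes SREBP-1, went the other way, with 40.9 and 33.6 CPM at 5 h, against 64.3 and 60.2 CPM at 0 h. The log2 fold change of Srebf1 was -0.74 ± 0.14 (edgeR adjusted p = 0.00161). The span of Srebf1 overlaps only the edge of Rai1, which ends at 60199197, and also overlaps the microRNA genes Mir6921 and Mir6922. Rai1 fell as well (log2 fold change -0.58 ± 0.14, edgeR adjusted p = 0.00624), and without a stated strand setting reads in the overlap cannot be assigned. Scap, the escort of both SREBPs, had 55.0 and 52.2 CPM at 5 h and 45.6 and 47.8 CPM at 0 h, a difference that did not pass (0.20 ± 0.12, edgeR adjusted p = 0.217).

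Insig1 and Srebf2 kept their calls in 11 of 12 alternatives. With mitochondrial scaling their log2 fold changes were -0.01 and -0.17 and neither passed, on a scale where the median gene was at -0.86. Insig2 and Srebf1 kept theirs in all 12. Library totals and mitochondrial scaling shift nearly all genes down, so a fall could hardly lose its call there, while a rise could. The number of alternatives kept is therefore not comparable between rises and falls.

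Promoter windows from RefSeq (GRCm38.p6, 250 bases before to 50 after a start site) were matched for 26 of the 33 genes by symbol, with 34 windows in all. The windows of the regulators that parted, and of 3 enzyme genes used below, are printed 5′ to 3′ because SREBPs act through such proximal elements. Capitals mark CCAAT (or ATTGG, its reverse complement), the box bound by the SREBP partner NF-Y, and TCACNCCA or its reverse complement TGGNGTGA, a short form of the sterol regulatory element, extended where the longer TCACNCCAC (reverse complement GTGGNGTGA) matches. Where a gene has several start sites, a window holding capitals was taken, and which start site these cells use was not measured here.
Insig1, chr5:28071162-28071461, plus strand: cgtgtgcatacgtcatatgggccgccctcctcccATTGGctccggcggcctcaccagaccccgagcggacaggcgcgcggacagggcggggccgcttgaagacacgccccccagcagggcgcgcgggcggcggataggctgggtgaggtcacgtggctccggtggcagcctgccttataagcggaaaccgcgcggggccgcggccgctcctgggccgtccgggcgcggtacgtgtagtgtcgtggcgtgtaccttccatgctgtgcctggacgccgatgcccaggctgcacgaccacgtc
Insig2, chr1:121332540-121332839, minus strand: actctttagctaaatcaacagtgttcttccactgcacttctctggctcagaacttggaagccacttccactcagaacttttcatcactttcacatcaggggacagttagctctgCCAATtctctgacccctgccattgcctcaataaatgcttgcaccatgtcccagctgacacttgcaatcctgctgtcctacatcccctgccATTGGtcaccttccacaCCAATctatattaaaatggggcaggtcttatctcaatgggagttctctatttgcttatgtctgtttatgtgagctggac
Srebf2, chr15:82147019-82147318, plus strand: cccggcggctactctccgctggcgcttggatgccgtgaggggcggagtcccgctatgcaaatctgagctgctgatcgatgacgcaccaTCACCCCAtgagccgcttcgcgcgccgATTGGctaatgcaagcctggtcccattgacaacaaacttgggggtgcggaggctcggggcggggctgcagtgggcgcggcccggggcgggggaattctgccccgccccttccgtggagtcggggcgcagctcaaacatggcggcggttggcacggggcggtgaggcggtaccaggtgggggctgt
Srebf1, chr11:60210422-60210721, minus strand: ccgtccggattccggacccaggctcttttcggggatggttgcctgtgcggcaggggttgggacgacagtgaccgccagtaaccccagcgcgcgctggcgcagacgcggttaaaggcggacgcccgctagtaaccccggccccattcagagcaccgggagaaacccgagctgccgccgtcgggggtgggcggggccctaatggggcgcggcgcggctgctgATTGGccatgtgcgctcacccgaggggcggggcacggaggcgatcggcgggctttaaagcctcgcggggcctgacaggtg
Hmgcs1, chr13:119690101-119690400, plus strand: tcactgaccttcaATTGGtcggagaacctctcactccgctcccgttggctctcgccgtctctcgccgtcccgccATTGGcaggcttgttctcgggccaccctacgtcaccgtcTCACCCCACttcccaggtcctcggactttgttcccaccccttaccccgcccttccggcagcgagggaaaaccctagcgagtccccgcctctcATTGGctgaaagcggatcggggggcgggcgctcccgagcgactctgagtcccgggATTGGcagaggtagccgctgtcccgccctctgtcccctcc
Hsd17b7, chr1:169969156-169969455, minus strand: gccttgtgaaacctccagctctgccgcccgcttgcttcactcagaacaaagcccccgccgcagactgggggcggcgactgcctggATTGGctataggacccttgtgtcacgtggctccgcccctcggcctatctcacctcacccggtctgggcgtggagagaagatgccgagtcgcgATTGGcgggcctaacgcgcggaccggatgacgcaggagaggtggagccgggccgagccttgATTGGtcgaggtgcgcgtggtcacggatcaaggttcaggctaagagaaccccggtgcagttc
Msmo1, chr8:64733529-64733828, minus strand: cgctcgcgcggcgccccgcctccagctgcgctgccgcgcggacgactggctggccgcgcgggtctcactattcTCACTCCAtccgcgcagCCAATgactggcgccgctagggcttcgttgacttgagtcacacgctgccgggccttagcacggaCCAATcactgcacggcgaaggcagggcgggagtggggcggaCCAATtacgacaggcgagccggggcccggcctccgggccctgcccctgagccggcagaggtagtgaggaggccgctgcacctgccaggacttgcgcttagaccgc

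CCAAT on either strand was found in a window of 21 of the 26 genes (80.8%), against 43.5% of the 11006 tested genes that have a window. It was present in both genes that rose and have a window, Insig1 and Srebf2, in 9 of the 12 that fell, and in 10 of the 12 not past the threshold. The longer element TCACNCCAC was found in Hmgcs1 alone, with its first base 137 bases before the start site, against 1.45% of the tested genes. Its short form, chosen after the windows were read and contained in the longer one, was found in Hmgcs1, Msmo1 and Srebf2, which is 11.5% of the 26 against 4.61% of the tested genes. Hmgcs1 was not past the threshold, Msmo1 fell and Srebf2 rose. GGGCGG (reverse complement CCGCCC), the GC box, was found in 80.8% of the 26 and in 68.2% of the tested genes, and CACGTG, the E-box, in 23.1% and 11.7%. A match describes letters in a window and is not a measured binding site.

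**Figure D2:**
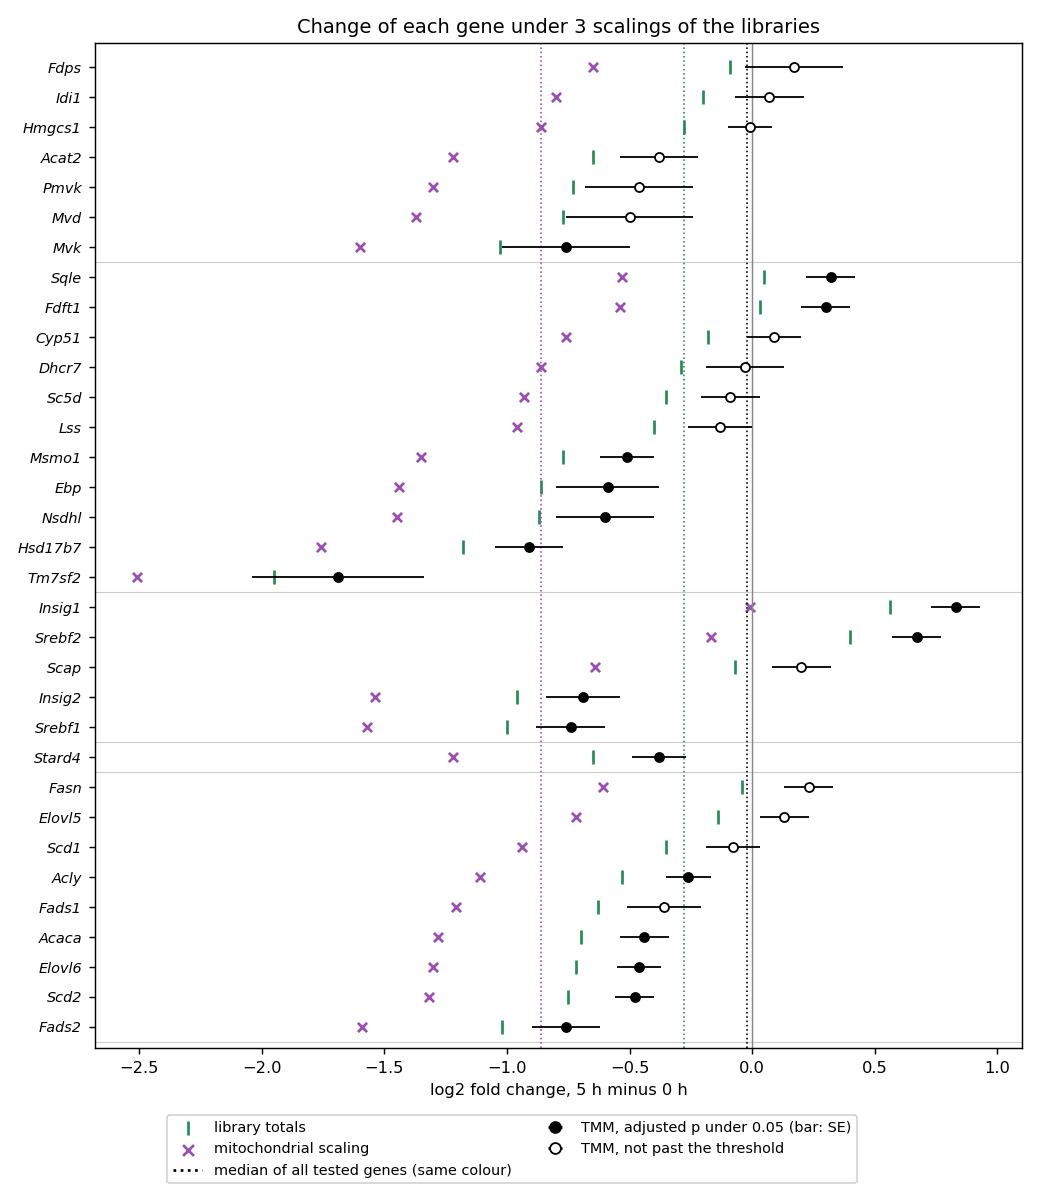
Log2 fold change, 5 h minus 0 h, of each gene with TMM scaling (circles with SE bars, filled where the edgeR adjusted p is under 0.05), library totals (green bars) and mitochondrial scaling (purple crosses), in the order mevalonate arm, squalene to cholesterol, SREBP control, sterol transfer and fatty acids. Dotted lines are the medians of all tested genes, at -0.02, -0.28 and -0.86 for the 3 scalings. With TMM the genes run from Insig1 at 0.83 to Tm7sf2 at -1.69.

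The mevalonate arm, from acetyl-CoA to farnesyl diphosphate, held mostly lower values, few of them past the threshold with TMM. Of its 7 genes 0 rose, 1 fell (14.3%) and 6 were not past the threshold, where 22.0% of all tested genes rose and 21.2% fell. The median log2 fold change of the 7 was -0.38. The count depended on the fit, with 5 of 7 lower by library totals, 6 by mitochondrial scaling, and 0 by DESeq2 or with the replicate block. Of all tested genes 30.3% fell with library totals and 51.2% with mitochondrial scaling. DESeq2 called 2913 of all tested genes as lower, and the replicate block 3545, against 3677 in the main fit. Mvk, the mevalonate kinase, had 6.49 and 6.92 CPM at 5 h, against 12.8 and 9.67 CPM at 0 h. It fell by 0.76 on the log2 scale (SE 0.26, edgeR adjusted p = 0.0361), and its call was lost with DESeq2 (adjusted p = 0.131), with the replicate block (adjusted p = 0.0521) and without 5 h replicate 1, 5 h replicate 2 or 0 h replicate 1. Across the fits that each left out 1 library its log2 fold change ran from -0.94 to -0.52 and its adjusted p reached 0.318.

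The next 3 genes by adjusted p had non-overlapping groups and did not pass. Acat2, a cytosolic thiolase that joins acetyl-CoA units, had 23.7 and 23.1 CPM at 5 h, against 32.2 and 28.5 CPM at 0 h (log2 fold change -0.38 ± 0.16, edgeR adjusted p = 0.0734). Pmvk, which adds the next phosphate after MVK, had 9.74 and 10.5 CPM at 5 h, against 14.7 and 13.0 CPM at 0 h (-0.46 ± 0.22, edgeR adjusted p = 0.116). Mvd, the decarboxylase that yields isopentenyl diphosphate, had 8.29 and 12.9 CPM at 5 h, against 13.7 and 16 CPM at 0 h (-0.50 ± 0.26, edgeR adjusted p = 0.144). All 3 were below the 0 h libraries in both 5 h libraries, and the replicate spread of Mvd at 5 h, 3.24 CPM (SD), was the largest of these. Without 5 h replicate 2 Mvd was at -0.82 and passed (edgeR adjusted p = 0.0280), and without 5 h replicate 1 it was at -0.19.

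Hmgcs1, the HMG-CoA synthase and a standard SREBP target, had 232 and 243 CPM at 5 h, against 243 and 236 CPM at 0 h. Its log2 fold change was -0.01 ± 0.09 (edgeR adjusted p = 0.923), and the groups overlapped. It was called as lower with library totals, where it was at the median of all tested genes, -0.28. The isomerase gene Idi1 (0.07 ± 0.14) and the farnesyl diphosphate synthase gene Fdps (0.17 ± 0.20) did not pass either, and the 5 h libraries of Fdps, at 49.5 and 31.3 CPM, lay on both sides of the 0 h libraries, at 38.3 and 33.8 CPM. Without 5 h replicate 2 Fdps was at 0.46 and passed (edgeR adjusted p = 0.0208), and without 5 h replicate 1 it was at -0.21.

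Between squalene and cholesterol, genes of 2 early steps rose and genes of 5 later steps fell. Of 11 genes 2 rose, 5 fell and 4 were not past the threshold, with a median log2 fold change of -0.13. With library totals 0 rose and 7 fell, with mitochondrial scaling 0 and 11, and without either 0 h library 0 and 3. DESeq2 called 3 as lower. Of all tested genes 13.2% rose and 30.3% fell with library totals, and 2.28% and 51.2% did with mitochondrial scaling. The 2 that rose act next to each other. Fdft1, the squalene synthase, had 130.4 and 121 CPM at 5 h, against 103 and 102 CPM at 0 h (log2 fold change 0.30 ± 0.10, edgeR adjusted p = 0.0354). Sqle, the squalene epoxidase and a rate-limiting step of the branch, had 151 and 165 CPM at 5 h, against 120.2 and 133 CPM at 0 h (0.32 ± 0.10, edgeR adjusted p = 0.0272). Both 5 h libraries were above both 0 h libraries for each gene, by 1.23-fold and 1.25-fold.

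These small rises were not kept in every fit. With library totals Fdft1 and Sqle were at 0.03 and 0.05 and did not pass, and with mitochondrial scaling they were at -0.54 and -0.53 and were called as lower. Without 0 h replicate 1 or 0 h replicate 2 both lost the call, as did Fdft1 without 5 h replicate 1, with log2 fold changes from 0.24 to 0.37 for Fdft1 and from 0.26 to 0.39 for Sqle over the fits without 1 library. The span of Fdft1, from chr14:63145150, overlaps only the edge of Ctsb, which ends at 63145923, and also overlaps the microRNA gene Gm51283. Ctsb, a cathepsin gene, also rose (log2 fold change 0.54 ± 0.15, edgeR adjusted p = 0.0124).

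The genes that fell act after ring closure, where methyl groups are removed from lanosterol and the ring bonds are rearranged. Cyp51, Sc5d and Dhcr7 also act there and did not pass. Hsd17b7 (chr1:169949535-169969242), the ketosteroid reductase of the demethylation complex, had 23.5 and 25.8 CPM at 5 h, against 46.3 and 46.2 CPM at 0 h. Its 0 h level was 1.88 times its 5 h level (log2 fold change -0.91 ± 0.14, edgeR adjusted p = 5.13e-04). Tm7sf2 (chr19:6062821-6067850), a sterol reductase, had 3.04 and 1.95 CPM at 5 h, against 8.85 and 7.51 CPM at 0 h. Its log2 fold change of -1.69 ± 0.35 was the lowest of the 33 and rested on 44 and 18 counts at 5 h, against 172 and 59 at 0 h (edgeR adjusted p = 0.00270). The groups of both genes stood well apart.

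Tm7sf2, which ends at chr19:6067850, overlaps only the edge of Vps51, at 6067842. Vps51 was not past the threshold, with 20.6 and 17.4 CPM at 5 h, against 17.1 and 13.9 CPM at 0 h (log2 fold change 0.28 ± 0.20, edgeR adjusted p = 0.284). Msmo1, the methylsterol monooxygenase that acts after CYP51 in the removal of methyl groups, had 70.5 and 63.2 CPM at 5 h, against 93.6 and 96.7 CPM at 0 h (-0.51 ± 0.11, edgeR adjusted p = 0.00394). Hsd17b7, Tm7sf2 and Msmo1 kept their calls in all 12 alternatives, among them library totals and mitochondrial scaling, which shift nearly all genes down.

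Nsdhl, which works with MSMO1 and HSD17B7 in demethylation, and Ebp, the sterol isomerase, fell with less margin. Their log2 fold changes were -0.60 ± 0.20 (edgeR adjusted p = 0.0315) and -0.59 ± 0.21 (edgeR adjusted p = 0.0471). Both lost the call with DESeq2 and without 5 h replicate 1, 0 h replicate 1 or 0 h replicate 2, and Ebp also without 5 h replicate 2, without the count filter and with the replicate block, within -0.69 to -0.49 for Nsdhl and -0.66 to -0.49 for Ebp. The cyclase gene Lss (-0.13 ± 0.13), the lanosterol demethylase gene Cyp51 (0.09 ± 0.11), the desaturase gene Sc5d (-0.09 ± 0.12) and the last reductase gene Dhcr7 (-0.03 ± 0.16) did not pass. Genes of neighbouring steps, such as Cyp51 and Msmo1, gave a difference near 0 and a fall in the same libraries.

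Stard4, a carrier of sterol between membranes, had 56.0 and 57.9 CPM at 5 h, against 75.6 and 72.3 CPM at 0 h. It fell by 0.38 on the log2 scale (SE 0.11, edgeR adjusted p = 0.0205), with no overlap of the groups. Without 0 h replicate 1 or 0 h replicate 2 the call was lost, with values from -0.41 to -0.34, and DESeq2 did not make it.

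Among the fatty acid genes 0 of 9 rose and 5 fell, where 22.0% and 21.2% of all tested genes did. The other 4 were not past the threshold, and the median log2 fold change of the 9 was -0.36. With library totals 7 were called lower and with mitochondrial scaling all 9, where 30.3% and 51.2% of all tested genes were. Acly and Acaca act before palmitate is built. Acly had the smallest of the 5 falls, and those of Acaca, Elovl6 and Scd2 were close, at -0.44, -0.46 and -0.48. Acly, which makes cytosolic acetyl-CoA from citrate, fell by 0.26 on the log2 scale (SE 0.09, edgeR adjusted p = 0.0373), and lost the call without 0 h replicate 1 or 0 h replicate 2 (-0.30 to -0.21), with DESeq2 and without the count filter. Acaca, the acetyl-CoA carboxylase that makes malonyl-CoA, had 102 and 106 CPM at 5 h, against 142 and 139 CPM at 0 h (-0.44 ± 0.10, edgeR adjusted p = 0.00421). Its 5 h libraries were both clearly lower, and it was called in all 12 alternatives. The span of Acaca, 272 kb from chr11:84129635, overlaps only the edge of Tada2a, which ends at 84129644. The same span also overlaps Gm11437, a protein-coding gene with 0 counts in every library, and the pseudogene Gm31074. Tada2a fell more (-0.96 ± 0.13, edgeR adjusted p = 2.84e-04). Fasn, the synthase that builds palmitate, did not pass, with 525 and 433 CPM at 5 h, against 424 and 395 CPM at 0 h (0.23 ± 0.10, edgeR adjusted p = 0.105). It was called as higher with the replicate block (0.22, edgeR adjusted p = 0.0398) and without 5 h replicate 2 (0.37, edgeR adjusted p = 0.00146), which made 1 of 9 that rose. Without 5 h replicate 1 it was at 0.08, and with mitochondrial scaling it was called as lower (-0.61, edgeR adjusted p = 0.0114).

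The elongases and desaturases that modify palmitate fell in part. Scd2, the stearoyl-CoA desaturase of many non-hepatic mouse cells, had 487 and 466 CPM at 5 h, against 658 and 669.6 CPM at 0 h. Its log2 fold change was -0.48 ± 0.08 (edgeR adjusted p = 9.59e-04). Scd1, its relative, also on chromosome 19, had 106 and 126 CPM at 5 h, against 122 and 123 CPM at 0 h, with overlapping groups (-0.08 ± 0.11, edgeR adjusted p = 0.602). The 2 desaturase genes gave a fall and a value near 0.

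Elovl6, which elongates palmitate, had 127 and 124 CPM at 5 h, against 171 and 172 CPM at 0 h (log2 fold change -0.46 ± 0.09, edgeR adjusted p = 0.00261). Elovl5, which elongates polyunsaturated fatty acids, had 109.5 and 117 CPM at 5 h, against 107 and 100.1 CPM at 0 h (0.13 ± 0.10, edgeR adjusted p = 0.348). The groups of Elovl6 stood far apart and those of Elovl5 close together.

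Fads2, the first desaturase of the polyunsaturated pathway, had 25.8 and 24.1 CPM at 5 h, against 43.3 and 40.8 CPM at 0 h. It fell with a log2 fold change of -0.76 ± 0.14 (edgeR adjusted p = 0.00165). Fads1, which acts later in the pathway and is also on chromosome 19, had 26.6 and 28.5 CPM at 5 h, against 37.4 and 33.1 CPM at 0 h and did not pass (-0.36 ± 0.15, edgeR adjusted p = 0.0727). Both genes were lower in both 5 h libraries. Acaca, Scd2, Elovl6 and Fads2 were called as lower in all 12 alternatives, among them library totals and mitochondrial scaling, which shift nearly all genes down.

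Ratios of related genes within a library do not depend on how libraries are scaled to each other, so 5 pairs were compared in that way. The ratios are of counts not divided by length, so only their difference between groups is read. For Insig1 over Insig2 the count ratio was 7.22 and 6.48 at 5 h, against 2.28 and 2.52 at 0 h. On the log2 scale the means were 2.77 ± 0.11 and 1.26 ± 0.10 (SD, n = 2 each), a difference of 1.51. For Srebf1 over Srebf2 the count ratio was 0.168 and 0.146 at 5 h, against 0.413 and 0.425 at 0 h, a log2 difference of -1.42. Both differences were many times the spread between replicates.

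The other pairs differed less. The log2 ratio of Elovl6 over Elovl5 was 0.21 and 0.08 at 5 h, against 0.68 and 0.78 at 0 h, a difference of -0.59. The difference was 0.40 for Scd1 over Scd2 and 0.40 for Fads1 over Fads2. For Scd1 over Scd2 the 5 h libraries, at -2.20 and -1.88, were further from each other than the 0 h libraries, at -2.43 and -2.44. In each of the 5 pairs the groups did not overlap. As single genes, 37.5% of all tested genes lay below and 36.0% above, and no such share was computed for other pairs. The ratios use the same counts as the fits, so they are no separate evidence for the changes of the single genes. An exact two-sided permutation test of 2 against 2 libraries cannot go below p = 0.333, so no test is given.

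**Figure D3:**
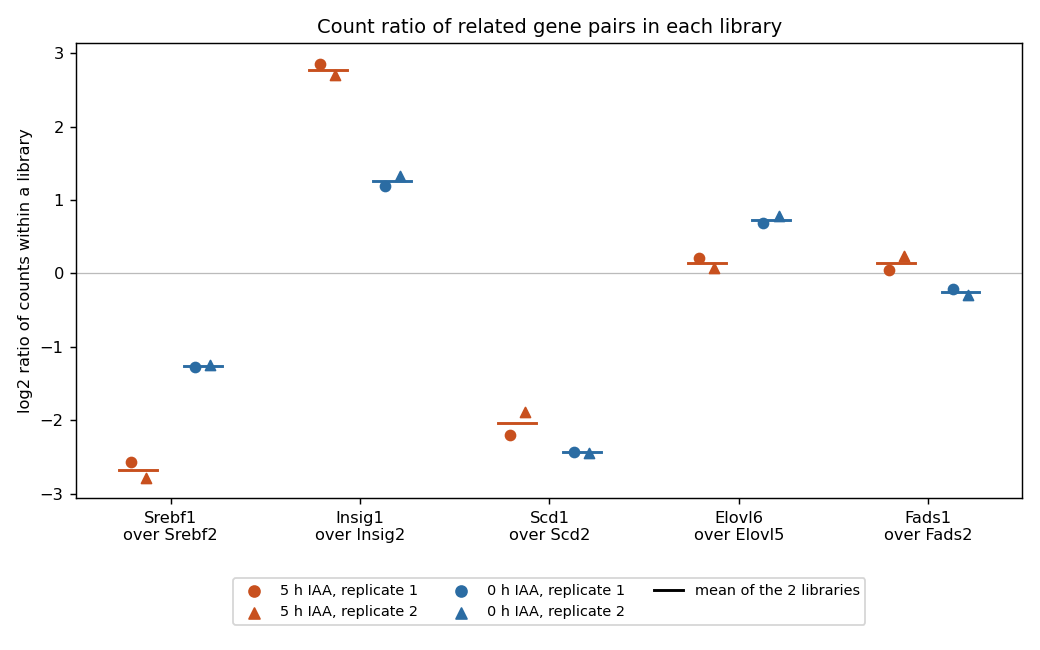
Log2 ratio of counts of 2 related genes within each library, 5 h in orange on the left and 0 h in blue on the right of each pair, with a line at the mean of the 2 libraries. Insig1 over Insig2 is near 2.77 at 5 h and 1.26 at 0 h, and Srebf1 over Srebf2 near -2.67 at 5 h and -1.26 at 0 h.

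Gene span was set beside the changes because log2 fold change fell with span over the whole table (Spearman's rho -0.297 across 15098 genes, which are not independent replicates). Across the 33 genes, whose spans ran from 5.03 to 272 kb with a median of 17.9 kb, rho was 0.0652. Both are descriptions, and the points share the same 4 libraries. Of the 33, 0 were under 5 kb, the class with the highest median (0.49), in which 32.2% of tested genes rose and 4.68% fell. The 19 genes of 5 to 20 kb had a median of -0.38, against -0.00 for the 4657 tested genes of that span, and the 8 genes of 20 to 50 kb had -0.36, against -0.21 for 3761. Of the 4 genes of 50 to 100 kb, Srebf2 and Acly changed in opposite directions, and their median was 0.17, against -0.28 for 1933.

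Calls can be set beside the same classes. Of the 19 genes of 5 to 20 kb 2 rose and 7 fell, where 24.8% and 20.2% of tested genes did. Of the 8 genes of 20 to 50 kb 1 rose and 4 fell (18.8% and 31.5% of tested genes), of the 4 of 50 to 100 kb 1 rose and 1 fell (16.3% and 36.2%), and of the 2 over 100 kb, Acaca and Elovl6, 0 rose and 2 fell (9.27% and 29.8%).

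Measured from the median of their own span class, the 33 had a median of -0.14, with 20 below that class median and 13 above. In all, 28 of the 33 were within the middle 50% of their class. Srebf2 was at percentile 91.5 of genes of 50 to 100 kb and Insig1 at percentile 87.8 of genes of 5 to 20 kb. Below the middle were Mvk at percentile 20.1, Hsd17b7 at percentile 16.2 and Tm7sf2 at percentile 3.97, all in the class of 5 to 20 kb. Srebf1 (percentile 27.4) and Insig2 (percentile 29.1) were within the middle of genes of 20 to 50 kb.

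**Figure D4:**
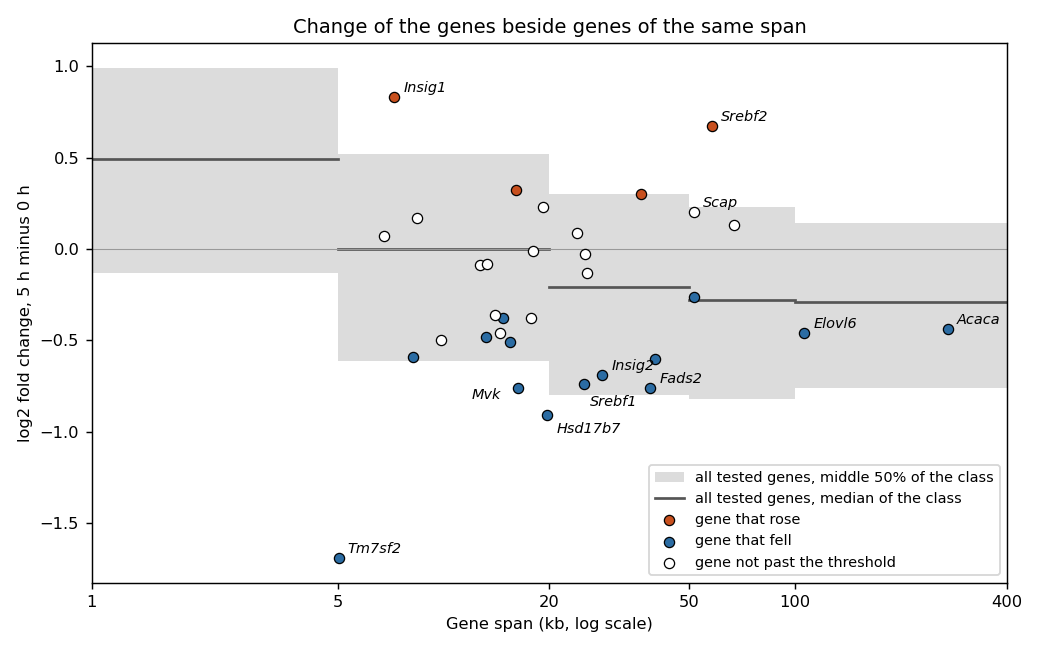
Log2 fold change, 5 h minus 0 h, of the 33 genes against gene span in kb on a log axis, beside the median (line) and middle 50% (grey) of all tested genes in each of 5 span classes. Insig1 and Srebf2 lie above the grey band of their class, and Mvk, Hsd17b7 and Tm7sf2 lie below theirs, while the other 28 genes are within it. The outer classes are drawn only to 1 and 400 kb.

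Other genes of lipid metabolism were counted in 6 lists, against 22.0% of all tested genes that rose and 21.2% that fell. Of 13 partners of SREBP and INSIG processing 4 rose and 3 fell (median log2 fold change 0.21, -0.06 with library totals and -0.64 with mitochondrial scaling). Rnf145, a sterol-responsive ubiquitin ligase of the ER, had 197 and 184 CPM at 5 h, against 101 and 112 CPM at 0 h (0.84 ± 0.10, edgeR adjusted p = 1.19e-04). Mbtps2, the protease that makes the final cut in SREBPs, had 51.0 and 44.1 CPM at 5 h, against 94.4 and 84.9 CPM at 0 h (-0.91 ± 0.12, edgeR adjusted p = 2.52e-04). Thus the ligase gene rose and the protease gene fell.

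Of 14 genes of sterol uptake, storage and export 3 rose and 5 fell (median -0.22). Abca1, the exporter of cholesterol to apolipoproteins, fell by 0.83 on the log2 scale (SE 0.11, edgeR adjusted p = 2.52e-04). Mylip, a ubiquitin ligase for lipoprotein receptors that sterols are known to induce, rose by 1.27 ± 0.25 (edgeR adjusted p = 0.00210). Among 12 genes of other isoprenoid branches 2 rose and 3 fell (median -0.10). Rabggtb, a subunit of the Rab prenyltransferase, rose by 1.61 ± 0.09 (edgeR adjusted p = 6.85e-06), and its introns carry snoRNAs whose reads cannot be told apart from it here. Pdss1, which makes the ubiquinone side chain, fell by 1.27 (SE 0.15, edgeR adjusted p = 1.32e-04).

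Among genes that supply, burn or store fatty acids, more were called lower than higher. The lists were not matched to all tested genes in span. In each span class from 20 kb up more of all tested genes fell than rose, and in those below 20 kb more rose than fell. Of 23 tested genes of acyl chain supply 1 rose and 8 fell (median -0.08), among them the malic enzyme gene Me1 (-1.24 ± 0.22, edgeR adjusted p = 0.00130) and the elongation dehydratase gene Hacd3 (-1.07 ± 0.20, edgeR adjusted p = 0.00174). Of 20 tested genes of fatty acid oxidation 0 rose and 9 fell (median -0.54), with the lowest adjusted p for Cpt1c, a carnitine palmitoyltransferase relative (-1.22 ± 0.13, edgeR adjusted p = 5.94e-05), and Echs1, an enoyl-CoA hydratase (-1.59 ± 0.17, edgeR adjusted p = 7.14e-05). Of 18 genes of glycerolipid synthesis 3 rose and 9 fell (median -0.56). Gpat4, which starts glycerolipid synthesis in the ER, fell by 1.03 (SE 0.14, edgeR adjusted p = 2.75e-04), and Lpin1, a phosphatidate phosphatase, rose by 0.59 ± 0.10 (edgeR adjusted p = 7.69e-04). The counts of these lists moved with the scaling, as did those of all tested genes. Of the latter 13.2% rose and 30.3% fell with library totals, and 2.28% and 51.2% did with mitochondrial scaling. With library totals the genes that rose and fell were 2 and 5 for processing partners, 1 and 7 for uptake, storage and export, and 2 and 5 for isoprenoid branches. They were 1 and 10 for acyl chain supply, 0 and 13 for oxidation and 2 and 10 for glycerolipid synthesis. With mitochondrial scaling the genes that fell were 9, 11, 9, 17, 16 and 14 of these lists in the same order. Rabggtb was then the single gene of the 6 lists that rose, and Lpin1 was at -0.25, Rnf145 at -0.00 and Mylip at 0.41, none of them past the threshold.

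Depth came to 15645894 and 10349277 counts at 5 h, against 17752887 and 7174772 counts at 0 h (replicates 1 and 2). The 33 genes had 18 to 12775 counts in a library, far above a floor of 3 counts, which was 0.154 to 0.382 CPM and covers counting error only. Standard errors of the 33 log2 fold changes ran from 0.08 to 0.35. Across genes, log2 CPM of the 5 h replicates correlated with r = 0.965 and of the 0 h replicates with r = 0.969, while pairs that crossed the groups gave 0.906 to 0.931. The design text calls the replicates independent, but nothing says that they came from separate cultures, so the p-values measure the spread between these libraries, which may be technical. Labelled Snrnp70 RNA had 451 and 475 CPM at 5 h and 249 and 243 CPM at 0 h, and since the degron acts on the protein this does not check the labels.

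All 10 embryonic stem cell markers were tested, and 4 rose and 3 fell, where 22.0% and 21.2% of all tested genes did. Their summed level was 4592 and 4510.4 CPM at 5 h, against 4497 and 4270.2 CPM at 0 h. This sum hides opposite changes. Pou5f1, Sox2, Klf4 and Fgf4 rose 1.28- to 1.82-fold, while Nanog, Tfcp2l1 and Tdgf1 fell to between 0.641 and 0.831 of their 0 h levels. The part of these changes in the results was not tested. Of 4 hepatocyte markers Alb and Afp had no count in any library, and the list summed to 0.691 and 0.757 CPM at 5 h, against 0 and 0 CPM at 0 h. The 4 adipocyte markers, with Lep at 0, summed to 0.898 and 0.865 CPM at 5 h, against 0.978 and 0 CPM at 0 h. Of 8 fibroblast markers Col3a1, Postn, Lum and Dcn were at 0, and the sum was 14.3 and 13.7 CPM at 5 h, against 12.4 and 10.9 CPM at 0 h. Trophectoderm markers summed to 145 and 166 CPM at 5 h, against 94.0 and 91.4 CPM at 0 h, nearly all of it Tfap2c, which embryonic stem cells also express, while Cdx2 was at 0. Its part in the results was not tested. The primitive endoderm sum was 11.1 and 6.38 CPM at 5 h, against 10.6 and 6.11 CPM at 0 h, the mesoderm sum 6.28 and 7.67 CPM, against 6.02 and 4.84 CPM, and the neural sum 61.9 and 71.0 CPM, against 61.5 and 62.2 CPM. Within the neural list 1 of 4 markers rose and 1 fell. Sox1 had 9.32 and 12.0 CPM at 5 h, against 4.43 and 3.05 CPM at 0 h (log2 fold change 1.46 ± 0.31, edgeR adjusted p = 0.00321), and Tubb3 had 22.4 and 14.8 CPM at 5 h, against 28.7 and 28.9 CPM at 0 h (-0.61 ± 0.20, edgeR adjusted p = 0.0321). The part of either in the results was not tested.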

How the data were processed

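RNA labelled with 4sU was coupled to biotin and caught on streptavidin beads, and libraries were made with a Vazyme kit, per the labels' protocols. HISAT2 2.2.1, StringTie 2.2.1 and DESeq2 1.42.0 with mm10 are named per the submitters' processing notes, with no role stated for each. The deposited values were treated as estimated counts: whole numbers in the layout of StringTie's export, in which values of 3 and of 4 outnumber values of 2, as when coverage is turned into counts. The annotation and the use of strand are not given in the sources used here, and no exon lengths were used.

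All genes kept by filterByExpr were fitted in edgeR 4.0.16 (R 4.3.3) with TMM factors (0.927 and 0.896 at 5 h, 1.10 and 1.10 at 0 h) and its robust quasi-likelihood test, 5 h minus 0 h, on all 4 libraries without a replicate block. P-values were Benjamini-Hochberg adjusted over all 17344 genes. Alternatives were DESeq2 1.42.0, limma-voom (limma 3.58.1), library totals, mitochondrial scaling, no count filter, at least 50 counts in every library of a group, counts divided by 4, a replicate block, and each library left out.

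Spans and positions came from the RefSeq gene table of GRCm38.p6, to which mm10 corresponds (15098 of the tested genes, 87.1%, by symbol or synonym). The genes and lists were chosen with earlier results of these data known. Values of every library are given for the 4 genes with the lowest adjusted p in each of 5 role groups, for genes called against the majority of their group and for the pairs, and 2 genes are named per related list. Hmgcs1, Fasn, Fdps, Scap, Sox1, Tubb3, the called stem cell markers and the overlapping genes were given library values or named outside this rule, after their values were seen. Library values of Rnf145, Mbtps2 and Snrnp70 are also given outside this rule.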

Additional observations from a re-analysis of the deposited data

How the results depend on the processing

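Over all tested genes 3814 rose and 3677 fell. These were 2297 and 5257 when scaled by library totals, and 396 and 8872 when scaled by the mitochondrially encoded genes. Without 1 library the counts ran from 2721 to 3765 and from 2609 to 3834. Of the 33 genes, 4 rose and 14 fell. DESeq2 gave 4 and 9, where it called 3365 and 2913 over all tested genes. Mitochondrial scaling gave 0 and 30, and library totals 2 and 22. Without 1 library 2 to 6 rose and 9 to 13 fell. Those fits also have fewer samples. The other causes were not tested. The median log2 fold change of -0.36 was -1.21 with mitochondrial scaling, -0.63 with library totals, -0.39 to -0.26 without 1 library and -0.14 after the median of each span class was taken off. With mitochondrial scaling Insig1 (-0.01), Srebf2 (-0.17), Fdft1 (-0.54) and Sqle (-0.53) changed sign. Of the 14 that fell 9 kept the call in all 12 alternatives, and of the 4 that rose 2 kept it in all but mitochondrial scaling. Library totals and mitochondrial scaling shift nearly all genes down, so these 2 counts are not comparable.

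Same-numbered libraries deviated from their group means with a correlation of 0.05 across 17344 genes, with 2 pairs, so the numbers were not taken to pair the samples. With the replicate block 5 of the 33 rose and 12 fell, and over all genes 3837 rose and 3545 fell. Tm7sf2 had the fewest counts, down to 18, and the highest standard error, 0.35.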
